A study of Arabidopsis thaliana with 19 samples.

Results

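SIS, AT5G25280 and AT5G11090 are 3 nuclear genes of Arabidopsis thaliana that code for serine-rich proteins, and all of them lie on chromosome 5. They were chosen by their measured expression in the same seedlings that are described here, so the differences between ploidy groups in their levels are a description and carry no test. SIS has the locus identifier AT5G02020. Each gene is read by 1 probe set of the Affymetrix ATH1 array, 3 of 22746 probe sets other than controls. The array measured 19 single seedlings, each 2 weeks old and raised in a growth chamber, with Murashige and Skoog salts in the medium. They form an autopolyploid series, in which extra genome copies come from the same species. The 5 paternal excess triploids, 3x(p), and the 5 maternal excess triploids, 3x(m), carry 3 genome copies, the 5 tetraploids, 4x, carry 4, and the 4 diploids, 2x, carry 2. The labels name no strain, no treatment and no transgene.

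Serine-rich proteins hold long stretches in which the amino acid serine recurs, and serine is a residue that protein kinases phosphorylate. SIS takes its name, Salt Induced Serine rich, from the rise of its transcript in plants given salt. In Arabidopsis, salt and drought alter many transcripts, in part through abscisic acid, a hormone of water shortage, and zinc finger repressors such as STZ are among the genes they induce. The gene table used here describes only SIS as serine-rich and gives AT5G25280 and AT5G11090 no role, so none is given below. An autopolyploid has more copies of every gene, which on its own would leave each gene's share of the transcripts as it was.

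The values are log2 expression values made with RMA (robust multi-array average), a procedure that corrects the background, brings all arrays to 1 distribution and summarises the probes of a gene. A difference of 1 on this scale is a doubling of the signal set against all other transcripts of the seedling, and it is no measure per cell or per genome copy. In whole seedlings, a smaller share of cells of one type and less RNA per cell cannot be told apart. The array medians lay between 5.80 and 5.89, and the most alike pair of arrays had a root mean square difference of 0.231. Seedling 3x(m) 4 stood apart with a median shift of 0.12 over the genes of chromosome 4, where the others lay between −0.0045 and 0.0017, while the shift of chromosome 5 lay between −0.0023 and 0.0062 in all 19. Of the 13 shoot markers listed, only RCA had a single-gene probe set in the annotation used here. RCA, which codes for the activase of the carbon-fixing enzyme Rubisco, lay between 13.72 and 13.98 in every seedling. The highest value of any probe set was 14.16, so RCA was near the top of the scale, where a difference between groups might not show.

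SIS was highest in the paternal excess triploids. Its log2 values were 10.17, 10.34, 9.42, 9.90 and 8.81 in the 3x(p) seedlings and 9.16, 8.77, 8.60, 7.65 and 8.70 in the 3x(m) seedlings. They were 9.22, 9.54, 9.80, 9.43 and 8.90 in the 4x seedlings, against 7.20, 7.53, 8.05 and 7.64 in the 2x seedlings. All 3x(p) and 4x seedlings were above every diploid, and of the 15 polyploid seedlings 14 were, the exception being 3x(m) 4. The span over all seedlings was 3.14, an 8.81-fold range of signal between 3x(p) 2 and 2x 1.

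The mean level of SIS was 9.73 ± 0.62 in 3x(p), 8.58 ± 0.56 in 3x(m) and 9.38 ± 0.34 in 4x (SD, n = 5 each), against 7.60 ± 0.35 in 2x (SD, n = 4). The paternal excess triploids differed from the diploids by 2.12 ± 0.30 (SE), a 4.35-fold difference. Tetraploids differed from diploids by 1.77 ± 0.30, or 3.42-fold, and maternal excess triploids by 0.97 ± 0.30, or 1.96-fold. In the order 3x(p), 4x, 3x(m), 2x, the first step of 0.35 was smaller than the larger SD of the neighbouring groups, 0.62, and those groups overlapped. The steps of 0.80 and 0.97 after it were larger than the SD of 0.56, although the seedlings of neighbouring groups overlapped there too. Without 3x(m) 4 the maternal excess mean was 8.81 ± 0.25.

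**Figure D1:**
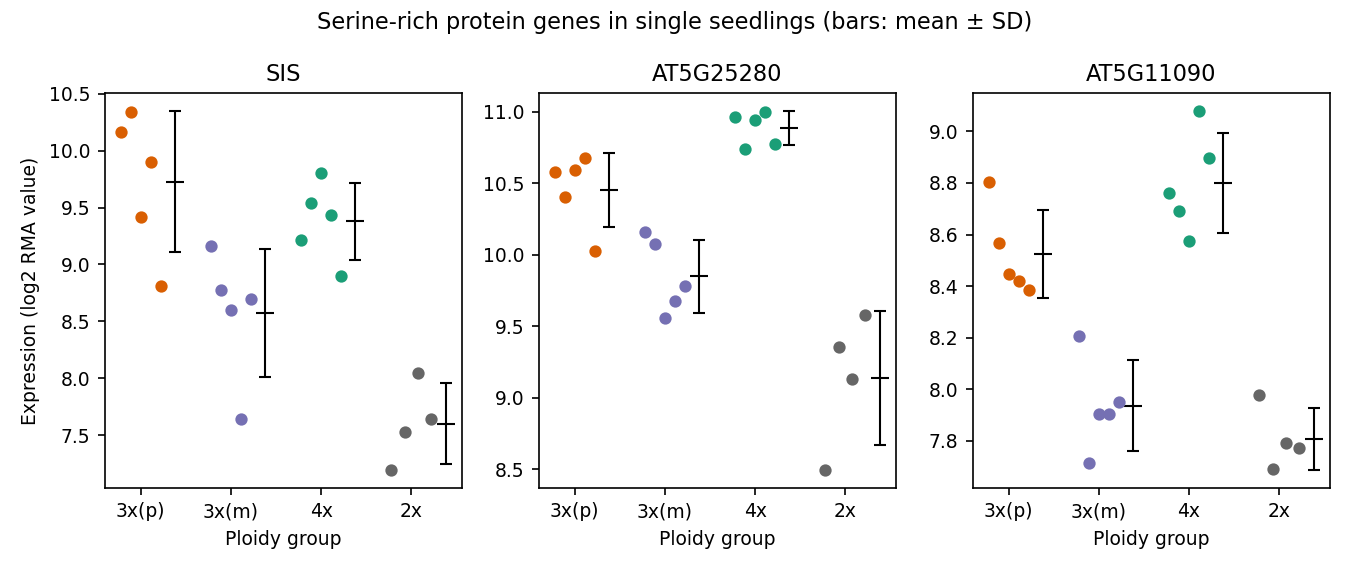
Log2 RMA values (y axis, a separate scale per panel) of SIS, AT5G25280 and AT5G11090 in each seedling of the 3x(p), 3x(m), 4x and 2x groups (x axis), with points in order of replicate number and black bars for the group mean ± SD (n = 5, 5, 5 and 4). SIS is highest in 3x(p), at a mean of 9.73, while AT5G25280 and AT5G11090 are highest in 4x, at 10.89 and 8.80, and 2x is lowest in each panel.

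AT5G25280 was highest in the tetraploids. The 3x(p) seedlings had 10.58, 10.41, 10.59, 10.67 and 10.02, and the 3x(m) seedlings 10.16, 10.07, 9.56, 9.68 and 9.78. The 4x seedlings had 10.96, 10.74, 10.94, 11.002 and 10.78, against 8.49, 9.35, 9.13 and 9.58 in the 2x seedlings. Every tetraploid was above every other seedling, and the paternal excess triploids were all above the diploids. Of the 15 polyploid seedlings 14 were above every diploid, the exception being 3x(m) 3 at 9.56, just under 2x 4 at 9.58.

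Its mean was 10.46 ± 0.26 in 3x(p), 9.85 ± 0.26 in 3x(m) and 10.89 ± 0.12 in 4x (SD, n = 5 each), against 9.14 ± 0.47 in 2x (SD, n = 4). The tetraploid seedlings lay closest together, within 0.26, and the diploids were spread over 1.08, most of it through 2x 1, without which the diploid mean was 9.35 ± 0.23. The difference from 2x was 1.32 ± 0.18 (SE) in 3x(p), 0.71 ± 0.18 in 3x(m) and 1.75 ± 0.18 in 4x, or 2.49-fold, 1.64-fold and 3.36-fold. In the order 4x, 3x(p), 3x(m), 2x, the steps of 0.43, 0.61 and 0.71 were each larger than the larger SD of the neighbouring groups (0.26, 0.26 and 0.47). Only in the first of these steps did the seedlings not overlap.

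AT5G11090 followed the same order as AT5G25280 over a smaller range. The 3x(p) seedlings had 8.81, 8.57, 8.45, 8.42 and 8.39, and the 3x(m) seedlings 8.21, 7.72, 7.91, 7.91 and 7.95. The 4x seedlings had 8.76, 8.69, 8.58, 9.08 and 8.90, against 7.98, 7.69, 7.79 and 7.77 in the 2x seedlings. The values fell into a high pair of groups, 3x(p) and 4x, and a low pair, 3x(m) and 2x, with no seedling of the high pair as low as any of the low pair. Of the 15 polyploid seedlings 11 were above every diploid.

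The mean of AT5G11090 was 8.53 ± 0.17 in 3x(p), 7.94 ± 0.18 in 3x(m) and 8.80 ± 0.19 in 4x (SD, n = 5 each), against 7.81 ± 0.12 in 2x (SD, n = 4). Relative to the diploids the difference was 0.72 ± 0.11 (SE) in 3x(p), 0.13 ± 0.11 in 3x(m) and 0.99 ± 0.11 in 4x, or 1.64-fold, 1.09-fold and 1.99-fold. The maternal excess triploids were thus apart from the diploids by less than the larger SD of these groups, 0.18, and the value moved between 0.06 and 0.18 as single seedlings were left out, lowest without 3x(m) 1. The step between 4x and 3x(p), 0.28, was larger than the SD of 0.19, with overlap, and that between 3x(p) and 3x(m), 0.59, was larger than 0.18, without overlap.

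The reciprocal triploids are alike in ploidy, and the extra genome comes from the father in one and from the mother in the other. All 3 genes stood higher in 3x(p) than in 3x(m), SIS by 1.15 ± 0.28 (SE), AT5G25280 by 0.61 ± 0.17 and AT5G11090 by 0.59 ± 0.11. Without 3x(m) 4, which was the lowest maternal excess seedling for SIS, the difference in SIS was 0.92. Against the tetraploids, 3x(p) differed by 0.35 ± 0.28 in SIS, by −0.43 ± 0.17 in AT5G25280 and by −0.28 ± 0.11 in AT5G11090. The value for SIS was 0.20 without 3x(p) 2 and 0.58 without 3x(p) 5. In 3x(m) the differences from 4x were −0.80 ± 0.28, −1.04 ± 0.17 and −0.86 ± 0.11 in the same order of genes.

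The triploid levels were also set on the scale of each gene's difference between tetraploids and diploids. In 3x(p), SIS reached 119.6% of that difference, AT5G25280 75.4% and AT5G11090 72.2%. In 3x(m) the percentages were 54.9, 40.7 and 12.9. Leaving out single seedlings moved the 3x(p) percentages between 111 and 132 for SIS, between 71.9 and 81.6 for AT5G25280 and between 65.2 and 77.6 for AT5G11090. The 3x(m) percentages moved between 46.6 and 68.0, between 32.4 and 45.3 and between 6.12 and 18.5, the last of these lowest without 3x(m) 1. All 5 of the 3x(p) seedlings lay above the midpoint of the 4x and 2x means for each gene. Of the 3x(m) seedlings 4 of 5 did for SIS, 2 of 5 for AT5G25280 and 0 of 5 for AT5G11090.

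**Figure D2:**
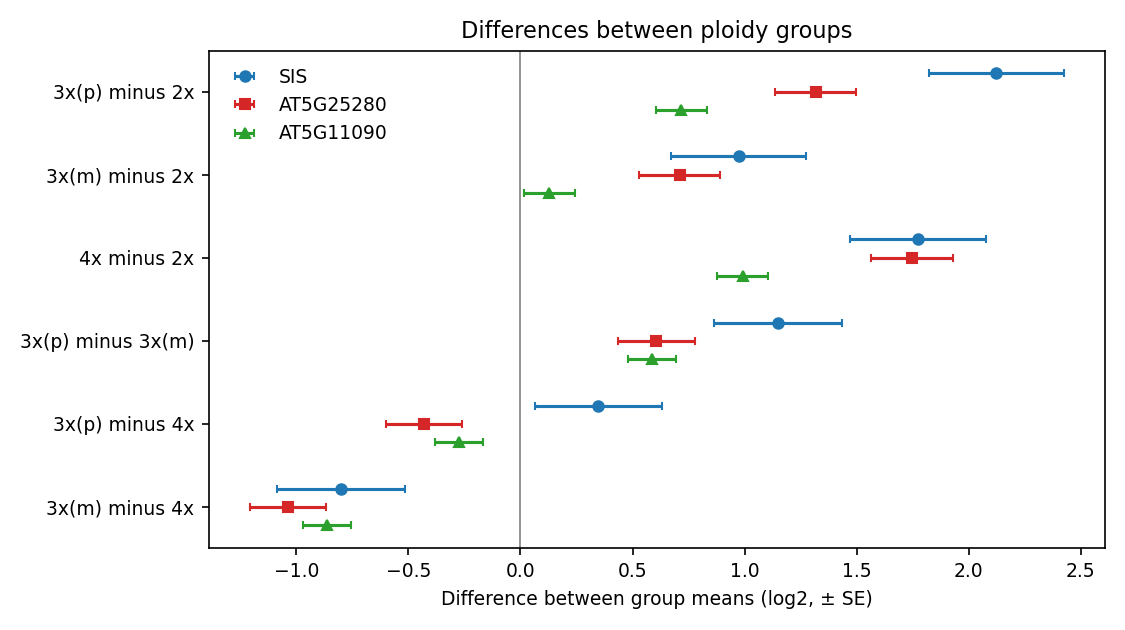
Difference between group means in log2 units (x axis), first group minus second, for the 6 comparisons (y axis), with bars for ± SE from the fit over all 19 seedlings, for SIS (circles), AT5G25280 (squares) and AT5G11090 (triangles). Both differences of 3x(p) and 4x from 2x are positive for every gene, and 3x(p) minus 4x is positive for SIS (0.35) and negative for the other two.

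The comparisons with 2x share the 4 diploid seedlings, and those with 4x share the 5 tetraploids. Seedlings of 3x(p) and 2x did not overlap for 3 of the 3 genes, as for 4.85% of all probe sets. The same held for 3 of 3 between 4x and 2x, where 7.24% of all probe sets did not overlap, and for 0 of 3 between 3x(m) and 2x, where 1.37% did not. Between 3x(p) and 3x(m) it held for 1 of 3 (0.743% of all), between 3x(p) and 4x for 1 of 3 (0.901%) and between 3x(m) and 4x for 2 of 3 (1.59%). Since the genes were selected on these levels, nothing is read from these counts.

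How single seedlings lay around their own group mean was tested. These deviations come from the same values by which the genes were chosen, so the test is not fully separate from that choice. Over the 19 seedlings the values correlated between genes, with r of 0.84 for SIS and AT5G25280, 0.74 for SIS and AT5G11090 and 0.83 for AT5G25280 and AT5G11090, as genes with like group means must. After each group's mean was taken off, SIS and AT5G25280 had a Pearson r of 0.512 and a Spearman rho of 0.449, with p = 0.0339 and p = 0.083 (two-sided permutation test within groups, n = 19). Adjusted over the 3 pairs these were 0.102 and 0.249, so the relation did not pass. Without the seedlings farthest from the median in SIS, 3x(m) 4 and 3x(p) 5, r was 0.328 (permutation p = 0.252). For scale, 10% of all other probe sets had an r with SIS above 0.483 and 10% had one below −0.504.

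The other pairs were weaker. SIS and AT5G11090 had an r of 0.176 and a rho of 0.156 (permutation test, p = 0.516 and p = 0.555, adjusted p = 0.774 and p = 0.712), and r was 0.032 without 3x(m) 4 and 3x(p) 5. AT5G25280 and AT5G11090, which shared the order of the groups, had an r of −0.03 and a rho of −0.093 (permutation test, p = 0.899 and p = 0.712, adjusted p = 0.899 and p = 0.712), and r was 0.117 without 2x 1 and 3x(p) 5. Seedling 2x 1 was 0.64 below its group mean in AT5G25280 and 0.17 above it in AT5G11090. Seedling 3x(p) 5 was the lowest of its group in all 3 genes, by 0.91, 0.43 and 0.14 below the mean. With 19 seedlings these tests leave moderate relations undetected.

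**Figure D3:**
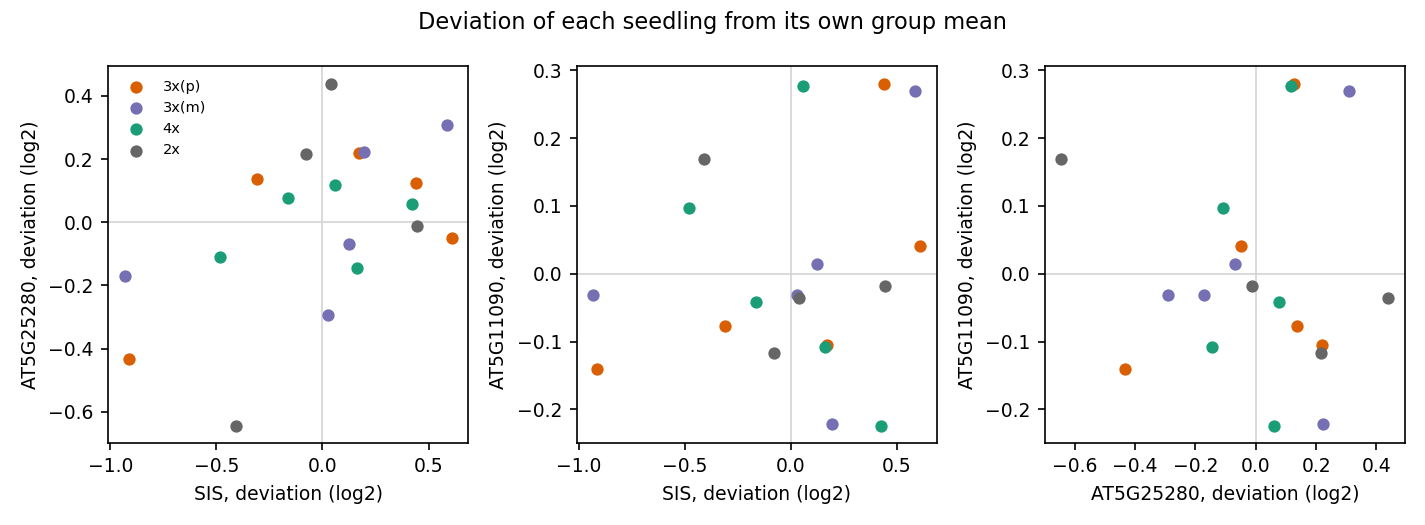
Deviation of each seedling from the mean of its own group in log2 units, one gene against another (x and y axes as labelled), for the 3 pairs of SIS, AT5G25280 and AT5G11090, with 1 point per seedling coloured by group. The points slope upwards for SIS and AT5G25280 (r = 0.512) and show little slope for the other pairs (r = 0.176 and −0.03).

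The genes most like the mean of the 3, after each had been standardised over the 19 seedlings, were AT3G19030 (r = 0.937), AT1G68670 (r = 0.932), AT3G52060 (r = 0.927), AT3G26510 (r = 0.91), AT2G38820 (r = 0.907) and AT5G05750 (r = 0.887). They were ranked among the 8728 other single-gene probe sets outside the dimmest 30%, so the remaining probe sets of the array could not be named. Because r over all seedlings holds the group pattern by which the genes were picked, it is a description. After removal of group means the same genes had r between 0.486 and 0.706, a measure that the ranking over all seedlings partly holds. For scale, 10% of all other probe sets had such an r above 0.45 and 1% had one above 0.733. AT3G19030 had group means of 10.62 in 3x(p), 10.18 in 3x(m) and 10.61 in 4x, against 9.65 in 2x. AT3G26510 had 9.73, 9.07 and 9.94 in the same order, against 8.38 in 2x.

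Although AT2G38820, AT3G26510, AT3G19030 and AT1G68670 were also among those most like the mean, each gene had 2 nearest profiles of its own. For SIS these were AT2G38820 (r = 0.963) and AT4G14270 (r = 0.938), with r of 0.891 and 0.846 after removal of group means. AT2G38820 averaged 8.65 in 3x(p), 8.04 in 3x(m) and 8.62 in 4x, against 7.49 in 2x. For AT5G25280 the nearest were AT3G26510 (r = 0.927, 0.764 within groups) and AT3G19030 (r = 0.908, 0.582 within groups). For AT5G11090 they were AT4G37180 (r = 0.907, 0.57 within groups) and AT1G68670 (r = 0.902, 0.565 within groups). For scale, 1% of all other probe sets had an r within groups above 0.8 with SIS, 0.728 with AT5G25280 and 0.568 with AT5G11090. AT4G37180 shared the high and low pair of groups, with means of 8.38 in 3x(p), 8.02 in 3x(m) and 8.54 in 4x, against 8.07 in 2x. Without 3x(m) 4 all these r over seedlings stayed between 0.879 and 0.958.

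Of 4 further Arabidopsis genes taken as serine-rich from general knowledge, since the gene table does not describe them so, AT5G55980, AT5G20370 and AT3G56500 had a probe set that the annotation used here names. All 3 were among the dimmest 30% of probe sets, with means over the arrays between 3.44 and 3.89, so that the size of their differences is uncertain. None was called by limma in any of the 6 comparisons at an adjusted p under 0.05. Of all probe sets limma called 1.15% in 3x(p), 0.0352% in 3x(m) and 0.958% in 4x, each against 2x. It called 0.0044% between 3x(p) and 3x(m), 0.022% between 3x(p) and 4x and 0.0747% between 3x(m) and 4x. Against 2x, AT5G20370 differed by 0.26 ± 0.11 (SE) in 3x(p), 0.13 ± 0.11 in 3x(m) and 0.36 ± 0.11 in 4x (limma, adjusted p = 0.341, 0.999 and 0.143). AT3G56500 differed by 0.06 ± 0.12, 0.02 ± 0.12 and 0.35 ± 0.12 in that order (limma, adjusted p = 0.895, 0.999 and 0.181), and without 2x 2 by −0.08, −0.12 and 0.21. AT5G55980 had differences of −0.14, −0.19 and −0.14, each with an SE of 0.15, which turned to 0.07, 0.01 and 0.07 without 2x 3. An unadjusted p under 0.05 was reached by 1 of the 3 between 3x(p) and 2x, 0 between 3x(m) and 2x and 2 between 4x and 2x, and by 12.2%, 4.33% and 12.9% of all probe sets.

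Of the salt, drought and abscisic acid response genes listed, 5 of 34 had a probe set that the annotation used here names. STZ, a zinc finger protein that acts as a transcriptional repressor under salt, cold and drought, rose in the paternal excess triploids. It was the 1 gene of the 5 that passed in any comparison, in 3x(p) against 2x, where 1.15% of all probe sets passed. Its values were 5.87, 6.66, 6.999, 5.86 and 7.58 in 3x(p) and 6.09, 5.99, 5.17, 6.82 and 5.77 in 3x(m). They were 5.87, 5.41, 4.68, 5.35 and 5.11 in 4x, against 5.13, 4.74, 4.39 and 4.35 in 2x. All paternal excess seedlings were above the diploids, by 1.94 ± 0.35 on average (SE, limma, adjusted p = 0.00757), a 3.84-fold difference. In 3x(m) the difference was 1.32 ± 0.35 (limma, adjusted p = 0.521) and in 4x 0.63 ± 0.35 (limma, adjusted p = 0.474). All maternal excess seedlings were above the diploids too. The 2 triploid groups overlapped, with 3x(p) higher than 3x(m) by 0.62 ± 0.33 (limma, adjusted p = 0.819). STZ thus had its lowest polyploid mean, 5.29, in the tetraploids, where AT5G25280 and AT5G11090 had their highest.

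The other 4 are COR15A and COR15B, chloroplast proteins of cold and dehydration tolerance, the dehydrin COR47 and the late embryogenesis abundant protein LEA4-5, and none of them was called. Their differences from 2x lay between 0.08 and 0.66 in 3x(p), between −0.33 and −0.13 in 3x(m) and between −0.49 and −0.10 in 4x. Except for COR15A and COR15B in 3x(p) and COR47 in 4x, these signs turned when certain single seedlings were left out. Without 3x(m) 4 all 4 differences in 3x(m) were positive, 0.30 for COR15A, 0.10 for COR15B, 0.13 for COR47 and 0.32 for LEA4-5. In 4x the sign turned for COR15A without 2x 3 (0.04), for LEA4-5 without 2x 1 (0.11) and for COR15B without 2x 1, 4x 1 or 4x 4 (0.02, 0.02 and 0.05). In 3x(p) it turned for COR47 without 2x 2, 2x 4, 3x(p) 1 or 3x(p) 2 (−0.15 to −0.01) and for LEA4-5 without 2x 2 or 2x 4 (−0.14 and −0.13). COR15A differed by 0.66 ± 0.66 in 3x(p), −0.29 ± 0.66 in 3x(m) and −0.33 ± 0.66 in 4x (limma, adjusted p = 0.763, 0.999 and 0.898). The median difference over the 5 genes was 0.41 in 3x(p), −0.29 in 3x(m) and −0.24 in 4x, and over all probe sets −0.0036, −0.0045 and −0.0033. In 3x(m) it was 0.30 without 3x(m) 4, with all 5 genes positive, in 4x it was 0.02 without 2x 1, and in 3x(p) it moved between 0.09 without 3x(p) 2 and 0.95 without 3x(p) 3. Against 2x, no gene of this list passed limma's test in 3x(m) or in 4x, with 1 and 0 of 5 at an unadjusted p under 0.05, where 4.33% and 12.9% of all probe sets stood. Of the 11 sodium transport genes listed, 0 had such a probe set.

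Of the genes induced by darkness and sugar starvation, 3 of 27 had such a probe set. AT3G15630 rose in 3x(p) by 1.14 ± 0.25 (SE, limma, adjusted p = 0.0266), with a mean of 7.16 ± 0.27 (SD, n = 5) against 6.02 ± 0.48 in 2x (SD, n = 4), and the groups did not overlap. The call ended without 2x 2, 2x 3, 3x(p) 1, 3x(p) 3 or 3x(p) 5 (adjusted p between 0.0518 and 0.0981). AKINBETA1, a subunit of the energy-sensing kinase SnRK1, differed by 0.56 ± 0.16 in 3x(p), 0.16 ± 0.16 in 3x(m) and 0.45 ± 0.16 in 4x (adjusted p = 0.106, 0.999 and 0.20). BZIP53, a transcription factor of the low-energy response, differed by 0.35 ± 0.09, 0.32 ± 0.09 and 0.32 ± 0.09 (adjusted p = 0.0882, 0.731 and 0.117). All 3 had positive differences from 2x in each polyploid group, and 3, 1 and 2 of them had an unadjusted p under 0.05 in 3x(p), 3x(m) and 4x, as had 12.2%, 4.33% and 12.9% of all probe sets. Without 2x 3 the differences of AKINBETA1 and AT3G15630 in 3x(m), 0.16 and 0.34 with all seedlings, were 0.04 and 0.14.

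Across the remaining comparisons limma called no gene of these lists. At an unadjusted p under 0.05, the salt list had 0, 1 and 1 genes of 5 for 3x(p) against 3x(m), 3x(p) against 4x and 3x(m) against 4x, where 6.09%, 4.86% and 8.49% of all probe sets stood. The starvation list had 2, 1 and 0 of 3, and the other serine-rich genes had 0, 1 and 2 of 3.

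**Figure D4:**
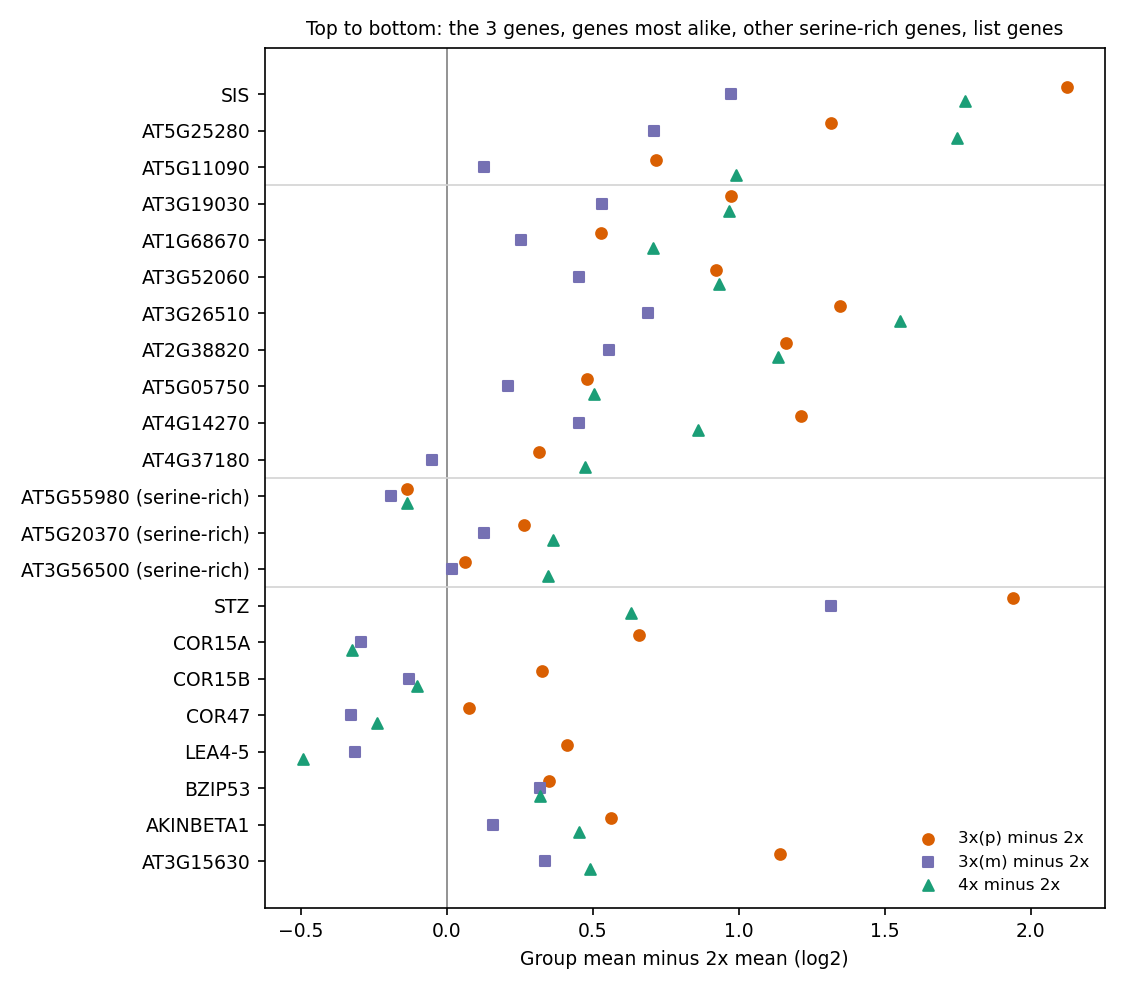
Mean of 3x(p) (circles), 3x(m) (squares) and 4x (triangles) minus the 2x mean in log2 units (x axis) for each gene (y axis), with the 3 serine-rich genes at the top, then the genes most like them over the seedlings, the other serine-rich genes and the genes of the salt and starvation lists. For the top 2 blocks 3x(m) lies closest to 2x in every row, whereas STZ has 3x(m) above 4x. The COR genes and LEA4-5 have 3x(m) and 4x below 2x, all 4 above 2x in 3x(m) once 3x(m) 4 is left out. In 4x the sign of COR15A, COR15B and LEA4-5 also turned when certain single seedlings were left out.

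Neighbouring genes on chromosome 5 were read in the same fit. The nearest gene on each side with a single-gene probe set lay 1 to 4 genes away. These were AT5G02000 and PRA1.A1 beside SIS, AT5G25270 and AT5G25290 beside AT5G25280, and AT5G11080 and AT5G11130 beside AT5G11090. Of these 6, 3 were among the dimmest 30% of probe sets. No neighbour was called by limma in any comparison, and at an unadjusted p under 0.05 there was 1 of 6 between 3x(p) and 3x(m) (PRA1.A1, 0.24 ± 0.11) and 0 of 6 in each other comparison, against 6.09% of all probe sets in that comparison and 4.33% to 12.9% in the others. Their differences from 2x lay between −0.01 and 0.20 in 3x(p), between −0.04 and 0.11 in 3x(m) and between 0.00 and 0.13 in 4x. PRA1.A1, a member of the prenylated Rab acceptor family, differed by 0.20 ± 0.11 (SE) between 3x(p) and 2x (limma, adjusted p = 0.517).

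Root markers stood highest in the tetraploids. The mean log2 level of the 7 root markers with such a probe set, of 12 listed, ranged from 6.94 to 7.48 in 3x(p), from 6.04 to 7.54 in 3x(m), from 7.06 to 7.83 in 4x and from 6.59 to 7.40 in 2x. All 7 were lower in both triploids than in 4x, and 6 of 7 were higher in 4x than in 2x. The lowest level in 3x(m), 6.04, was that of seedling 3x(m) 4. The median difference of 3x(m) from 2x over the 7 was −0.0995, with 3 of them positive. Without 3x(m) 4 it was 0.2054, with 6 of them positive. Of the 7, AT4G28940 alone was called between 4x and 2x, with 0.66 ± 0.15 (SE, limma, adjusted p = 0.0442), where 0.958% of all probe sets were called. That call ended in 16 of 25 alternatives, among them the omission of any 2x seedling or of 4x 1, 4x 2, 4x 4 or 4x 5. At an unadjusted p under 0.05 in that comparison stood 4 of the 7, and 12.9% of all probe sets. After removal of group means the root level had an r of 0.078 with SIS, −0.279 with AT5G25280 and 0.085 with AT5G11090 over the 19 seedlings. The shoot marker RCA had an r of 0.092, 0.413 and 0.18 in the same order of genes. The part of root or shoot tissue in the levels of the 3 genes was not tested. Of the seed storage markers 0 of 9 had such a probe set, and of the flower and pollen markers 1 of 8, AT5G45880, with a mean of 4.51 over the arrays, which was not called.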

How the data were processed

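Deposited values were log2 expression values per probe set, made by the authors with RMA, per the submitters' processing notes, which name no version. The table held 22810 probe sets. Without its 64 controls, 22746 were tested, of which the platform annotation listed 14016 and tied 13513 to a single gene. Loci of 13436 were matched to TAIR10.1 gene names. No coordinates or sequences are printed, because no genome build is stated for the values and no sequence table was used.

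Limma 3.58.1 (R 4.3.3) fitted the 4 group means to all 19 seedlings, without a block, and p-values were adjusted by Benjamini and Hochberg's method. Calls needed an adjusted p under 0.05. Relations within groups were tested with 100000 permutations within groups in Python 3.11.15. The fit and the permutation test were tested on simulated data. Genes and lists were chosen with earlier results of these data known, and the further serine-rich genes and the neighbours were added after the files were seen. Named were the 3 genes, the 6 most like their mean and the 2 most like each, other serine-rich genes, neighbours, and from each list the members that passed, up to 4, or otherwise the 1 of smallest p. The other salt and starvation genes were named beyond that rule, after their values were seen. The number of arrays limits the precision. Each array is a separate seedling.

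The alternatives tried were a fit of the compared groups alone, trended and robust eBayes, omission of the dimmest 30% of probe sets (mean below 4.07), a second quantile normalization, equal array medians, group medians, array weights, a replicate block and the omission of each seedling.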

Additional observations from a re-analysis of the deposited data

Results flagged for a closer look

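Among the 20 genes of the comparisons (the 3 serine-rich genes, the other serine-rich genes, those of the response lists and the neighbours), 80 groups of seedlings were searched for 1 seedling far from the rest, and 5 held one. Chance alone gives about 1 in 20 groups. None of the 5 was in SIS, AT5G25280 or AT5G11090. Seedling 3x(m) 4 had 5.79 for COR15A, where the other 3x(m) seedlings had 8.32 to 9.23, and 9.35 for COR47, where they had 11.34 to 12.04. The same seedling had the lowest SIS value of its group, 7.65, and the raised median of chromosome 4. Seedling 4x 3 had 8.98 for BZIP53, where the other tetraploids had 9.31 to 9.40, and 5.69 for AT3G15630, where they had 6.56 to 6.88. Seedling 2x 3 had 4.35 for AT5G55980, where the other diploids had 3.44 to 3.58.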

How the results depend on the processing

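The differences of SIS, AT5G25280 and AT5G11090 kept their sign and moved by less than the SD within groups in all 144 values computed per gene, over leaving out each seedling, a further quantile normalization, equal array medians, group medians, array weights and a replicate block. Many of these values could not move, so the count overstates the check. Leaving out a seedling of a group outside the comparison returned the main value, as did the replicate block between polyploid groups. The labels number the seedlings within each group, but of the 27 same-numbered pairs 12 had deviations correlated above 0.1 (range −0.375 to 0.435, median 0.038 against −0.004 for other pairs), and 15 of 19 seedlings were on average closer to their own number. Since not every pair was above 0.1, the numbers were not taken to pair the seedlings in the main fit. This rule would miss a weaker effect shared by seedlings of the same number, and a fit with the number as a block is given as an alternative. With the replicate block SIS differed by 2.23 between 3x(p) and 2x. The block gave 2, 8 and 28 called probe sets for 3x(p) minus 3x(m), 3x(p) minus 4x and 3x(m) minus 4x, against 1, 5 and 17 without it. With only the compared groups in the fit the counts were 109 (of 262) for 3x(p) minus 2x, 0 (of 8) for 3x(m) minus 2x, 451 (of 218) for 4x minus 2x, 0 for 3x(p) minus 3x(m) and 1 for 3x(p) minus 4x. Array weights gave 423, 1017 and 45 for 3x(p) minus 2x, 4x minus 2x and 3x(m) minus 4x. Leaving out single seedlings moved the counts between 107 and 356 for 3x(p) minus 2x, 1 and 17 for 3x(m) minus 2x, 77 and 382 for 4x minus 2x, 1 and 4 for 3x(p) minus 3x(m), 2 and 5 for 3x(p) minus 4x and 6 and 56 for 3x(m) minus 4x. The causes were not tested. Of the 11 response-list and serine-rich genes measured, 2 were called in 3x(p) minus 2x, where 1.15% of all probe sets were called. This count was 1 with only the compared groups and 1 to 3 without single seedlings. In 4x minus 2x, where 0.958% of all probe sets were called, 0 of the 11 were called, 2 with array weights and 0 to 1 without single seedlings. STZ kept its call in all 25 alternatives, and AT3G15630 lost it in 6, among them the fit of the compared groups alone (adjusted p = 0.0574). The correlation of SIS and AT5G25280 within groups lay between 0.368 and 0.568 as single seedlings were left out and passed without 2x 3 only (r = 0.535, permutation p = 0.0401, adjusted over 3 pairs).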
